A study of Mus musculus with 30 samples.

Results

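Excitatory and inhibitory neurons of the embryonic mouse cortex splice many RNAs differently. Here the difference between the classes was read in control cells and in cells with a conditional Nova2 knockout. The members were 823 alternative splicing events in 344 genes that the authors listed as changed on Nova2 loss in both classes, matched by event name and isoform. They were taken from 2682 events listed for Emx1-Cre cells and 1970 listed for Gad2-Cre cells, out of 4542 events in any of the 3 cortical tables. For each event the class gap is the level in Emx1-Cre cells minus the level in Gad2-Cre cells, once for the controls (control gap) and once for the knockouts (cKO gap).

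Nova2 is a neuronal RNA-binding protein that recognises clusters of YCAY, where Y is C or T in the DNA letters used here, in and around alternative exons. Where it binds bears on the outcome: binding inside or just before an exon is known to favour skipping, and binding after the exon to favour inclusion. Many of its known targets encode synaptic, adhesion and cytoskeletal proteins, and excitatory and inhibitory neurons of the cortex both express it.

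The values came from 4 groups of C57BL/6J mice, each with 3 samples of RNA depleted of ribosomal RNA from cortical cells sorted by FACS at embryonic day 18.5. They were control and conditional Nova2 knockout (cKO) cells of Emx1-Cre mice, and control and cKO cells of Gad2-Cre mice, and the labels name the Cre line for the controls as well. Emx1-Cre is active in progenitors of the dorsal forebrain, which give rise to cortical excitatory neurons and also to glia, and Gad2-Cre is active in GABAergic neurons. Whether replicate samples are separate animals is not stated in the labels. How completely and how early each Cre line removed Nova2 was not tested. Neuron class and Cre line go together in this design, so they cannot be told apart. Below, cells without Nova2 stand for cKO cells. Other groups of the series were not used here.

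The tables hold no expression values, so the class labels could not be checked by marker level. Of 9 excitatory markers, 1 had a listed event in each table (Bcl11b), and of 10 inhibitory markers 2 had one in the Emx1-Cre table and 3 in the Gad2-Cre table. None of 4 oligodendrocyte, 3 microglial and 3 vascular markers had a listed event, and 1 of 5 astrocyte markers had one, in the Emx1-Cre table. Erbb4, a marker of cortical interneurons, was listed in both, and in the authors' deposited tables its exon of 75 nt had a coverage of 33.0 in Emx1-Cre cells and 730 in Gad2-Cre cells. Other markers differed less: the highest coverage of an event was 70.5 and 79.9 for Bcl11b, an excitatory marker, and 73.4 and 125 for Dlx1, an inhibitory one, in the Emx1-Cre and Gad2-Cre tables. The part of other cells in the levels of each class was not tested.

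Exons that carry the main patterns are printed here from GENCODE M21 transcripts on mouse build mm10, each in the direction of its gene. Capitals mark YCAY, searched with TCAT as 1 form, TCAC as another, CCAT as the third and CCAC as the fourth, on the transcript strand with overlaps allowed. The classes diverged without Nova2 at the first 4 exons (Nrcam, Clstn1, Fryl, Slc8a1), stayed apart at the Ppip5k2 exon, came together at the Cask, Sgce and Cacna1b exons, and were close both before and after at the last 2.
Nrcam exon, chr12:44545379-44545435 (+ strand): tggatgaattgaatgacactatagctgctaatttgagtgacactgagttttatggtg
Clstn1 exon, chr4:149641658-149641714 (+ strand): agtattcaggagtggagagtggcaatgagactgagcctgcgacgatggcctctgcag
Fryl exon, chr5:73115256-73115300 (- strand): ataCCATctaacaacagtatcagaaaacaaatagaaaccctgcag
Slc8a1 exon, chr17:81442203-81442223 (- strand): ccctgttgttgaatgagcttg
Ppip5k2 exon, chr1:97721106-97721279 (- strand): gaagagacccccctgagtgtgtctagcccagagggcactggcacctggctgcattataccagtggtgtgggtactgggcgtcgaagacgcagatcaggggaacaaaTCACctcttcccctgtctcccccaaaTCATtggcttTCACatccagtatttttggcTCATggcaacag
Cask exon, chrX:13550947-13550982 (- strand): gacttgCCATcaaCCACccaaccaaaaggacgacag
Sgce exon, chr6:4690469-4690495 (- strand): ggaaaagagagacatgcaaaccccaga
Cacna1b exon, chr2:24656711-24656722 (- strand): gagctTCATggg
Ints10 exon, chr8:68825052-68825129 (+ strand): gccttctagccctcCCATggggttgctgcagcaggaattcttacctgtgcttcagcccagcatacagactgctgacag
Cadm3 exon, chr1:173349022-173349123 (- strand): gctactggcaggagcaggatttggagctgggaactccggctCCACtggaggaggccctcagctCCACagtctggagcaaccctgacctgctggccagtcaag
Each of these 10 coding exons has a length that is a multiple of 3, which holds for 65.0% of the 320 matched cassette exons. It does not hold for coding exons of 100 nt in Sh2b1 and 86 nt in Atp11b, described below and not printed. No YCAY lies within the Nrcam, Clstn1, Slc8a1 and Sgce exons, while the Ppip5k2 exon holds 4. Flanking introns were not analysed here, so these counts say nothing about YCAY next to the exons.

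An inclusion level is the authors' fraction, from 0 to 1, of an event's RNA that has the alternative exon, intron or first-named isoform, and each group has 1 pooled level with no value per sample. In RNA from many cells, a middle level in every cell and a mixture of cells with and without the exon cannot be told apart. Because every member was chosen by its change on Nova2 loss in both classes, and the gap change is the difference of these changes, the gaps are descriptions with no test. An approximate standard error (SE) of the gap change was derived from the authors' p-values, with a median of 0.0689. It is set beside many of the gaps, though not all, as a guide to their error. For the 107 members that the authors also tested between controls, the SE of the control gap from that test was 0.727 times this value in the median, ranging from 0.328 to 1.42 times and larger than it at 11 events. A gap is called present at 0.1 or more in size, the smallest difference the authors list. Events listed as changed in 1 class alone are outside this set.

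Across these events as a whole the gap between the classes was of similar size with and without Nova2, but it lay in part at other events. Some of these were other events of the same gene. The median size of the gap was 0.05 in controls and 0.0585 in cKO cells, and the gap was smaller in cKO cells at 405 of 823 events (49.2%). A control gap was present at 249 events (30.3% of the 823) and a cKO gap at 224 (27.2%). Both were present at 84 events. The gap stayed, with the same class higher, at 71 events in 40 genes (8.63%), shrank below 0.1 at 165 events in 88 genes (20.0%), appeared at 140 events in 81 genes (17.0%), and reversed at 13 events in 11 genes (1.58%). At the other 434 events, in 223 genes (52.7%), it was below 0.1 both times.

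A control gap carried over to a limited extent. Of the 249 events with one, 84 (33.7%) had a cKO gap, against 140 of 574 (24.4%) of those without. Read the other way, 84 of the 224 events with a cKO gap (37.5%) had a control gap, against 165 of 599 (27.5%) of the rest. Across the 823 events the signed gaps had a Pearson correlation of 0.263 and a Spearman correlation of 0.36, and the events of a gene often share reads. With 1 event per gene these were 0.228 and 0.362. Many of the gaps compared here were small beside their error. Of the 823 events, 149 had a control gap and 149 a cKO gap beyond 2 times the approximate SE. How far such error lowered the carry-over was not tested.

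**Figure D1:**
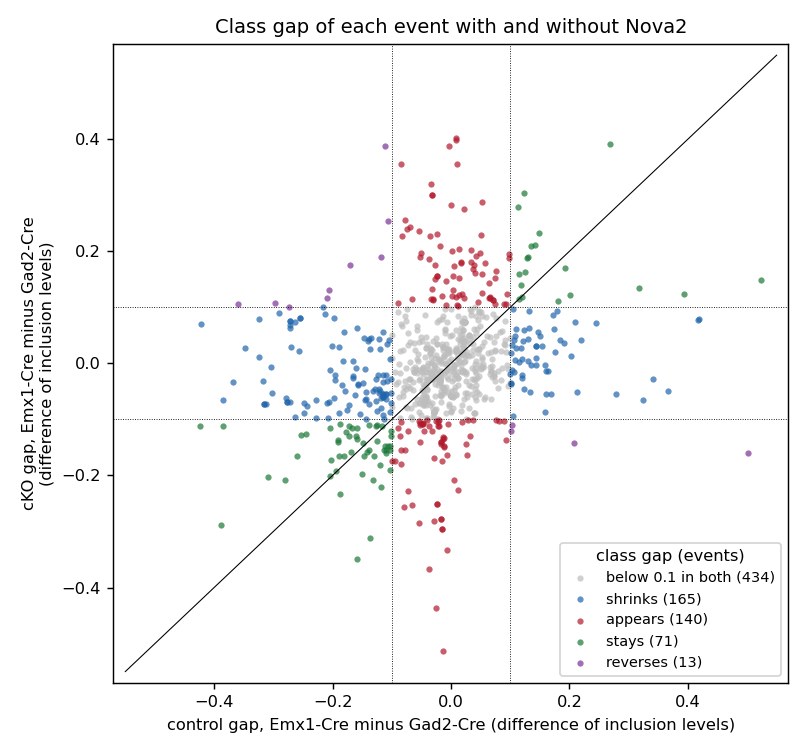
The control gap of each event (horizontal axis) is plotted against its cKO gap (vertical axis), both as Emx1-Cre minus Gad2-Cre inclusion level, for the 823 events, coloured by class of gap. Dotted lines mark gaps of 0.1 and the diagonal marks an equal gap; the 140 gaps that appear form a vertical band, the 165 that shrink a horizontal band, and the 71 that stay lie in the lower left and upper right corners.

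The gap change exceeded 2 times its approximate SE at 182 events (22.1%). Among the gaps that appeared, 65 of 140 changed by more than this, and 76 had a cKO gap beyond it. Among the gaps that shrank, 67 of 165 changed by more than this, and 91 had had a control gap beyond it. Of the 71 that stayed, 32 had a control gap and 37 a cKO gap beyond 2 times the approximate SE, so many of these gaps were themselves within it. The gap change exceeded it at 9 of the 71, at 11 of the 13 that reversed and at 30 of the 434 below 0.1 both times. The other gap changes were within this range.

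The gaps that appeared included the largest differences between the classes in cKO cells. The largest was at an exon of Nrcam, a cell adhesion molecule of axons and nodes of Ranvier. This 57 nt coding exon was included at 0.986 in Emx1-Cre controls and 1 in Gad2-Cre controls, and at 0.185 and 0.698 in the cKO cells. Both classes thus used the exon almost always with Nova2, and without it the excitatory cells skipped it mostly and the inhibitory cells did not. The cKO gap was -0.513, beside a control gap of -0.0141 and an approximate SE of 0.0636. Coverage in the authors' deposited tables was 230 for the Emx1-Cre comparison and 42.3 for the Gad2-Cre comparison.

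Clstn1 encodes calsyntenin-1, an adhesion protein that links vesicles to kinesin, and its 57 nt coding exon behaved likewise. It was included at 0.986 and 0.993 in the Emx1-Cre and Gad2-Cre controls, and at 0.323 and 0.656 in the cKO cells. The cKO gap was -0.333 with an approximate SE of 0.0447, at coverages of 504 and 162 in the authors' deposited tables. In both genes the exon fell in both classes and fell farther in excitatory cells.

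The mirror image was seen at exons that Nova2-expressing cells almost never used. A 181 nt exon of Lmtk3, a neuronal membrane kinase, was at 0.0152 and 0.00622 in the Emx1-Cre and Gad2-Cre controls, and at 0.914 and 0.513 in the cKO cells. For Glra2, the alpha 2 subunit of the glycine receptor, a 244 nt exon went from 0.000257 and 0.000199 to 0.854 and 0.571. Neither of these exons is a GENCODE M21 exon. Fryl, a large relative of the Drosophila cell-shape gene furry, has a 45 nt coding exon whose level went from 0.0261 and 0.0286 to 0.597 and 0.209.

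For these 3 genes both control levels were close to 0, and the excitatory cKO cells gained the exon more than the inhibitory ones. The cKO gaps were 0.401 for Lmtk3 (approximate SE 0.0689), 0.283 for Glra2 (0.0631) and 0.388 for Fryl (0.095). A 21 nt coding exon of Slc8a1, the sodium-calcium exchanger NCX1, was at 0.0474 in Emx1-Cre controls, 0.132 in Gad2-Cre controls, 0.75 in Emx1-Cre cKO cells and 0.395 in Gad2-Cre cKO cells. Its gap went from -0.085 to 0.355, with an approximate SE of 0.0565. A 298 nt exon of Fam126a, whose product hyccin belongs to a lipid kinase complex, went from 0.132 and 0.11 to 0.703 and 0.427, a cKO gap of 0.276 (0.0704).

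Among the 140 gaps that appeared, the change on Nova2 loss was larger in Emx1-Cre cells at 116 (82.9%), beside 439 of all 823 events (53.3%). Counted by gene, 64 had the larger change in Emx1-Cre cells and 17 in Gad2-Cre cells. The median change of these events was 0.451 in Emx1-Cre and 0.327 in Gad2-Cre cells, beside 0.257 and 0.248 over all 823. The share was 76.2% with 1 event per gene (48 of 63) and 75.0% where all 4 levels lay from 0.05 to 0.95 (63 of 84). An exception was Erbb4, the neuregulin receptor, whose 75 nt exon was at 0.141 and 0.17 in the Emx1-Cre and Gad2-Cre controls and at 0.636 and 0.918 in the cKO cells. Its cKO gap was -0.281 with an approximate SE of 0.0907, and its low coverage in Emx1-Cre cells is given above.

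Events that controls of both classes spliced almost completely one way show the same order. At 48 events in 35 genes both control levels were below 0.1, and the level moved farther in Emx1-Cre cells at 36 and in Gad2-Cre cells at 12. The median cKO level of these was 0.348 in Emx1-Cre and 0.272 in Gad2-Cre cells. At 58 events in 26 genes both control levels were above 0.9, and Emx1-Cre cells moved farther at 40 and Gad2-Cre cells at 18, to medians of 0.722 and 0.741. A gap appeared at 20 of the former and 18 of the latter, so 38 of the 140 appearing gaps (27.1%) began from such levels, beside 12.9% of all events.

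**Figure D2:**
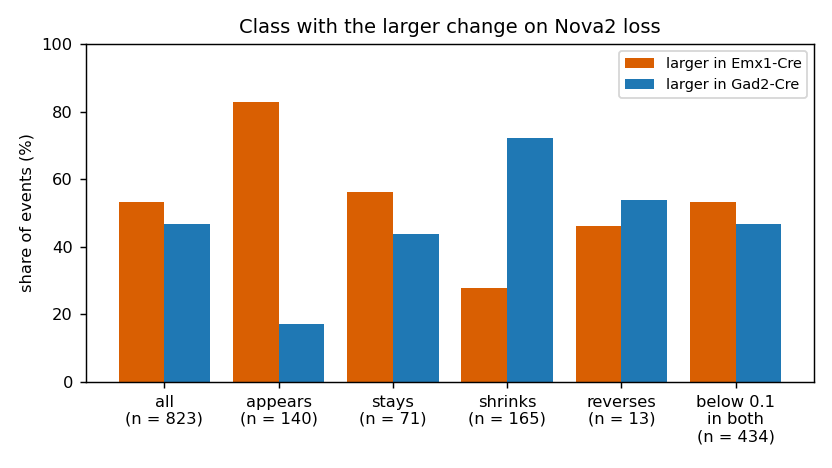
The share of events (vertical axis, percent) whose change on Nova2 loss was larger in Emx1-Cre (orange) or Gad2-Cre cells (blue), for all 823 events and by class of gap (horizontal axis). Emx1-Cre cells had the larger change at 82.9% of appearing gaps and 27.9% of shrinking gaps.

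Gaps that stayed were led by Evl, an Ena/VASP protein that promotes actin filament growth. A 101 nt exon of it was included at 0.221 in Emx1-Cre and 0.61 in Gad2-Cre controls, and at 0.0861 and 0.374 in the cKO cells. The gap was -0.389 in controls, with an FDR of 2.55e-09 in the authors' deposited table of controls, and -0.288 in cKO cells (approximate SE 0.066). The exon was lower in excitatory cells with and without Nova2, and both classes lost part of it. Erc2, a scaffold of the presynaptic active zone, had a tandem cassette that moved in parallel, from 0.429 and 0.633 to 0.0962 and 0.296. Its gap was -0.204 in controls and -0.2 in cKO cells, with an approximate SE of 0.0566.

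A coding exon of 174 nt in Ppip5k2, an inositol pyrophosphate kinase, was at 0.585 and 0.775 in the Emx1-Cre and Gad2-Cre controls and at 0.0383 and 0.204 in the cKO cells. The gap was -0.19 in controls and -0.166 in cKO cells (approximate SE 0.0723). A 107 nt exon of Arhgef10l went from 0.519 and 0.8 to 0.256 and 0.464. Pdzd4, a PDZ domain protein, had a tandem cassette that went from 0.403 and 0.583 to 0.269 and 0.434, and its gap of -0.18 became -0.165 (0.0479). In these 5 genes the exon was higher in the inhibitory cells both times and fell in both classes.

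The opposite arrangement was seen in Ptprf and Sh2b1. Ptprf encodes a LAR-type receptor phosphatase of axons and synapses, and its 306 nt coding exon was at 0.341 and 0.0725 in the Emx1-Cre and Gad2-Cre controls and at 0.806 and 0.415 in the cKO cells. The gap was 0.269 in controls and 0.391 in cKO cells (0.113). A 100 nt coding exon of Sh2b1, an adaptor of receptor tyrosine kinases, went from 0.265 and 0.0718 to 0.918 and 0.748. Its gap was 0.193 in controls and 0.17 in cKO cells (0.124), and the authors did not list it between controls. Both exons rose in both classes and were higher in the excitatory cells each time. For Clip1, which binds growing microtubule ends, the first-named isoform of a mutually exclusive pair went from 0.603 and 0.805 to 0.32 and 0.493.

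A gap counted as staying could still narrow. The largest control gap among all matched events was 0.524, at an 18 nt coding exon of Ptprd, another LAR-type phosphatase, named here after its values were seen. The exon was at 0.693 and 0.169 in the Emx1-Cre and Gad2-Cre controls and at 0.2 and 0.0501 in the cKO cells, leaving a gap of 0.15 (approximate SE 0.106).

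Among cassette and tandem exons, a direction common to the class gap and the Nova2 change was frequent. Of the 37 staying exons that fell in both classes, 36 were higher in Gad2-Cre cells (16 of 17 genes). Of the 17 staying exons that rose in both, 13 were higher in Emx1-Cre cells (10 of 13 genes). Over every exon event of these types that fell in both classes, Gad2-Cre cells had the higher level at 216 of 319 in controls (67.7%) and at 255 of 319 in cKO cells (79.9%). By gene, with 1 event each, this was 80 of 116 (69.0%) and 86 of 116 (74.1%).

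For exons that rose in both classes the order in controls was closer to even and then became one-sided. Where control levels are close, the class that rises more ends higher, so the cKO order largely restates the size of the changes. Emx1-Cre cells had the higher level at 96 of 171 in controls (56.1%) and at 140 of 171 in cKO cells (81.9%). By gene this was 40 of 76 (52.6%) and 59 of 76 (77.6%). The median level of falling exons went from 0.591 to 0.19 in Emx1-Cre cells and from 0.642 to 0.257 in Gad2-Cre cells, and that of rising exons from 0.262 to 0.765 and from 0.248 to 0.66. With 1 event per gene the medians of falling exons went from 0.621 to 0.226 in Emx1-Cre and from 0.67 to 0.272 in Gad2-Cre cells, and those of rising exons from 0.23 to 0.675 and from 0.22 to 0.584. By these medians the level moved farther in the excitatory cells for rising exons, by event and by gene, and for falling exons by event but not by gene. Among events of every type that fell in both classes, the larger change was in Emx1-Cre cells for 90 genes and in Gad2-Cre cells for 99.

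**Figure D3:**
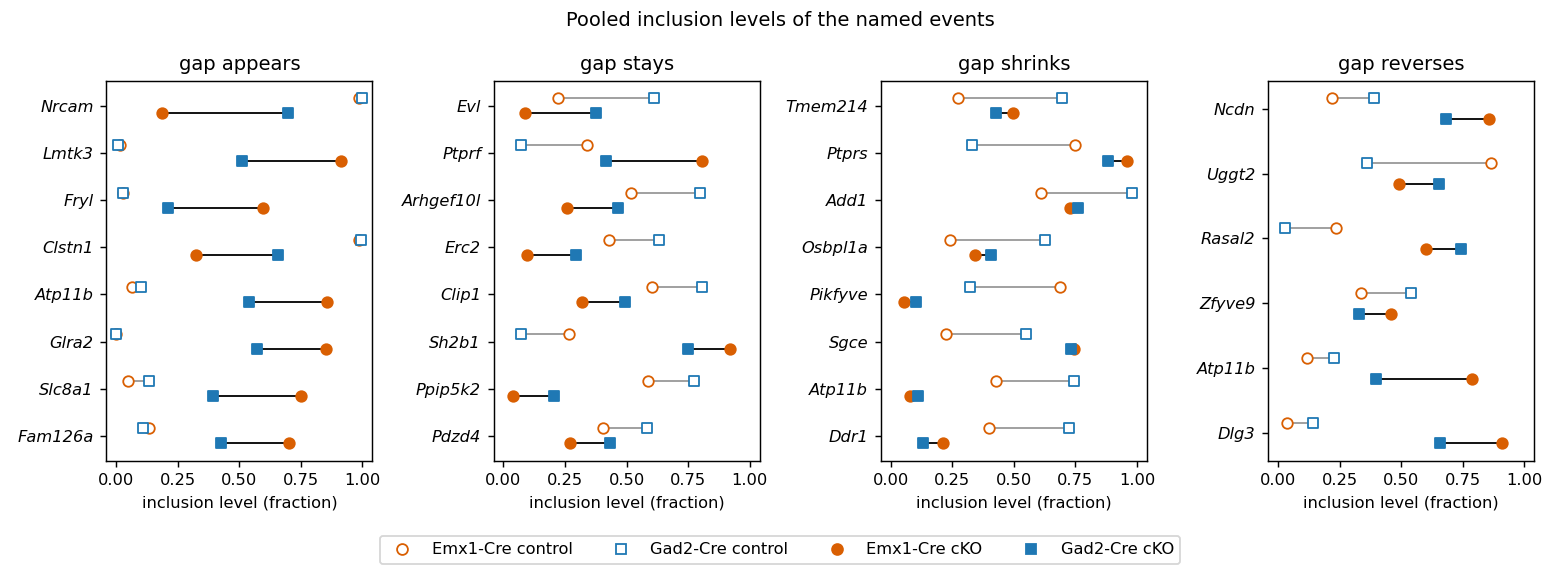
Pooled inclusion levels (horizontal axes, fraction from 0 to 1) of the events named for gaps that appear, stay, shrink and reverse, with open symbols for controls, filled symbols for cKO cells, circles for Emx1-Cre and squares for Gad2-Cre. Lines join the classes, and there are no error bars because each group has 1 pooled level; the line is short in controls and long in cKO cells on the left, and the reverse where gaps shrink.

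Gaps that shrank reached their common level by several routes. At some events the class with the higher level lost more. A 36 nt coding exon of Cask, a presynaptic scaffold kinase, was at 0.622 and 0.88 in the Emx1-Cre and Gad2-Cre controls and at 0.212 and 0.19 in the cKO cells. The gap went from -0.257, with an FDR of 1.52e-05 in the authors' deposited table of controls, to 0.022 (approximate SE 0.0792). Pikfyve, the lipid kinase that makes phosphatidylinositol 3,5-bisphosphate, had a 36 nt exon that was higher in excitatory controls, at 0.689 beside 0.322, and nearly lost in both cKO groups, at 0.0551 and 0.104. Ddr1, a collagen receptor kinase, had a 111 nt coding exon that went from 0.399 and 0.722 to 0.212 and 0.133.

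At other events the class with the lower level gained more. A 27 nt coding exon of Sgce, epsilon-sarcoglycan, was at 0.224 in Emx1-Cre and 0.548 in Gad2-Cre controls and reached 0.743 and 0.732 in the cKO cells. The gap went from -0.324 to 0.0109 (0.102). A 3' splice site choice in Ptprs, the third LAR-type phosphatase of these tables, went from 0.748 and 0.33 to 0.961 and 0.883.

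A shrinking gap also arose where the classes moved in opposite directions. In Tmem214, which encodes a membrane protein of the endoplasmic reticulum, a retained intron was at 0.274 and 0.696 in the Emx1-Cre and Gad2-Cre controls and at 0.496 and 0.426 in the cKO cells. Add1, which caps actin and joins it to spectrin, had a tandem cassette at 0.61 and 0.979 in controls and at 0.728 and 0.76 in cKO cells. Osbpl1a, an oxysterol-binding protein relative, had a mutually exclusive pair at 0.242 and 0.627, then 0.343 and 0.408. All 3 rose in excitatory cells and fell in inhibitory cells. The 21 events with such opposite changes lie in 11 genes. Of them, 14 had a shrinking gap (8 genes), 2 a staying one (2 genes) and 5 a reversed one (3 genes). Overlapping events of Adgrl3 recur among the shrinking and the reversed ones. The opposite changes largely fix this outcome.

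Of the 165 shrinking gaps, the change on Nova2 loss was larger in Gad2-Cre cells at 119 and in Emx1-Cre cells at 46 (27.9%). By gene this was 60 and 28. Among shrinking cassette and tandem exons that fell in both classes, Gad2-Cre controls had the higher level at 63 of 82, and a gap that closes while both fall requires the higher class to fall more. The change itself was of similar median size in both classes, 0.283 in Emx1-Cre and 0.302 in Gad2-Cre cells. At 17 of the 165 both cKO levels were below 0.1 or both above 0.9.

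Differences that the authors had themselves listed between controls were mostly reduced. Of the 823 matched events, 107 (13.0%) were in their table of controls, beside 10.8% of the 1859 events listed for Emx1-Cre cells alone and 18.8% of the 1147 listed for Gad2-Cre cells alone. The median gap size of the 107 was 0.18 in controls and 0.0748 in cKO cells, and it was smaller in cKO cells at 93 (86.9%). By category, 71 shrank, 30 stayed and 6 reversed. They were selected for a large control gap, so part of this decrease follows from the choice.

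Reversals were few. A 70 nt exon of Ncdn, neurochondrin, a neuronal protein involved in neurite growth, was at 0.22 and 0.391 in the Emx1-Cre and Gad2-Cre controls and at 0.858 and 0.683 in the cKO cells. The gap turned from -0.171 to 0.175, with an approximate SE of 0.0809. A 46 nt exon of Uggt2, a glucosyltransferase of the endoplasmic reticulum, went from 0.864 and 0.363 to 0.492 and 0.652, its gap from 0.501 to -0.161 (0.156). For Zfyve9, an endosomal adaptor of TGF-beta signalling, an 85 nt exon went from 0.336 and 0.542 to 0.461 and 0.329. The first-named isoform of a mutually exclusive pair in Dlg3, a synaptic scaffold, went from 0.0354 and 0.142 to 0.91 and 0.656. Its gap went from -0.107 to 0.254, and its control gap was smaller in size than the approximate SE of 0.139. A 3' splice site choice in Rasal2, which deactivates Ras, went from 0.234 and 0.0274 to 0.601 and 0.742, with a cKO gap of -0.141 close to its approximate SE of 0.133.

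Large Nova2 effects could also leave the classes close to each other. A tandem cassette of Clasp2, a microtubule plus-end protein, was at 0.598 and 0.638 in the Emx1-Cre and Gad2-Cre controls and at 0.0752 and 0.121 in the cKO cells. Its gap was -0.0406 and then -0.0455 with an approximate SE of 0.0313, at coverages of 1037 and 812 in the authors' deposited tables. A 78 nt coding exon of Ints10, a subunit of the Integrator complex, went from 0.661 and 0.677 to 0.129 and 0.171. Cadm3, a synaptic adhesion molecule, lost a 102 nt coding exon from 0.592 and 0.67 to 0.103 and 0.134.

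The gap change of these 3 was smaller than its approximate SE. A 58 nt exon of Ccdc64, a dynein adaptor, fell from 0.905 and 0.864 to 0.0479 and 0.137, and its gap change of -0.129 exceeded its approximate SE of 0.104. An overlapping 109 nt exon of Ccdc64 went from 0.952 and 0.926 to 0.107 and 0.25 and counts as a gap that appears, at -0.144. Rising events could end close together as well. A 15 nt exon of Eea1, an endosome tether, went from 0.0263 and 0.0606 to 0.612 and 0.6, and a 3' splice site choice in Ank3, ankyrin-G of the axon initial segment, from 0.25 and 0.242 to 0.893 and 0.833.

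The threshold separates neighbours that hardly differ. Just inside a cKO gap of 0.1 were a 1581 nt exon of Sorbs2 (0.153 and 0.253 in Emx1-Cre and Gad2-Cre cKO cells) and a mutually exclusive pair of Mboat2 (0.521 and 0.622). Just outside were a mutually exclusive pair of Agfg1 (0.411 and 0.311) and a retained intron of Vps16 (0.402 and 0.302).

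Overlapping events of a gene could fall into different categories. Of the 344 genes, 182 had 1 matched event and 162 had several, and 79 of these were in more than 1 category. Atp11b, a phospholipid flippase, shows this for an 86 nt coding exon. As a cassette it was at 0.118 and 0.229 in the Emx1-Cre and Gad2-Cre controls and at 0.788 and 0.4 in the cKO cells, which counts as a reversal. The control gap of this cassette was -0.111, just past the threshold, with an approximate SE of 0.0748. As the first-named exon of a mutually exclusive pair the exon was at 0.0649 and 0.0994, then 0.857 and 0.537, which counts as a gap that appears. A tandem cassette that contains it went from 0.428 and 0.745 to 0.0783 and 0.109, which counts as a gap that shrinks. This tandem also holds a 126 nt exon, so its level is not that of the 86 nt exon alone. As a cassette of its own, the 126 nt exon fell from 0.611 and 0.838 to 0.037 and 0.135. In all 3 events with the 86 nt exon the inhibitory controls had the higher level. In its cassette and its mutually exclusive pair the excitatory cKO cells did. Map2, a dendritic microtubule protein, had the most events, with 19.

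Event types differed in how often the classes were apart. Cassette exons, with 320 events, had the largest share of gaps that stayed (14.1%) or appeared (21.9%) among the types with more than 100 events, and 41.9% were below 0.1 both times. Tandem cassettes, with 183 events in 79 genes, had 29.0% shrinking (in 29 genes) and 12.6% appearing (in 16 genes). Of 190 mutually exclusive pairs, 60.0% were below 0.1 both times. Retained introns were the most alike in both classes, with 75.0% of 104 below 0.1 both times, 12.5% shrinking, 7.69% appearing and 3.85% staying. They also changed less on Nova2 loss, with medians of 0.158 in Emx1-Cre and 0.193 in Gad2-Cre cells, beside 0.318 and 0.292 for cassette exons. The types were not matched for the size of this change. Alternative 3' and 5' splice sites numbered 18 and 8.

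**Figure D4:**
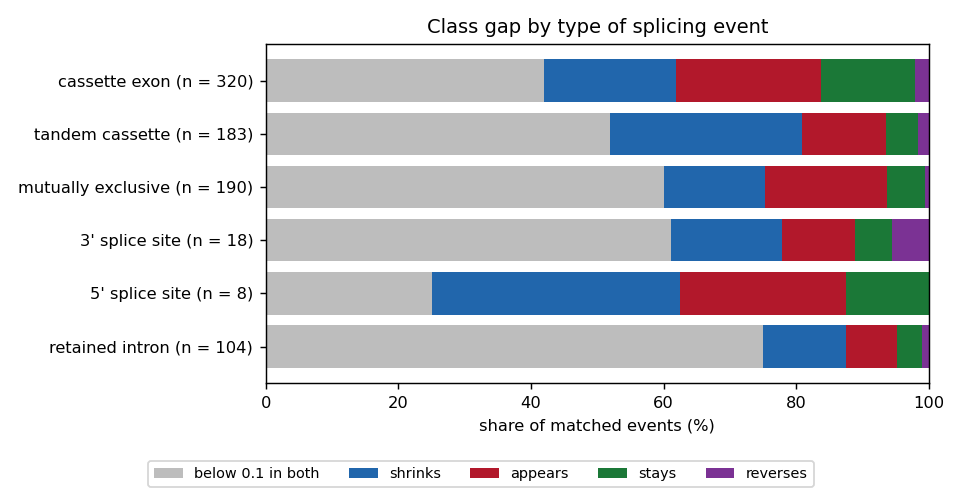
The share of matched events (horizontal axis, percent) in each class of gap for the 6 types of splicing event (rows, with their number). Retained introns have the largest share below 0.1 in both, 75.0%, among types with more than 100 events, and cassette exons the smallest, 41.9%.

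The cassette exons themselves differed somewhat between categories. Exons of up to 51 nt made up 22.8% of the 320, and 31.2% of the 64 shrinking, 11.1% of the 45 staying and 14.3% of the 70 appearing gaps. Lengths that are a multiple of 3 made up 65.0% of all, 71.9% of the shrinking, 57.8% of the staying and 57.1% of the appearing. These length shares count events, which lie in 179 genes, and overlapping forms of 1 exon are counted separately. YCAY in the exon was counted for the 205 exons that match a GENCODE M21 exon exactly. Its density was 2.04 per 100 nt over these, 1.75 for staying, 2.21 for shrinking, 2.24 for appearing and 2.04 for gaps below 0.1 both times. For the 4 reversing exons it was 1.58. Counted with 1 event per gene, it ran from 1.55 for staying to 2.45 for appearing gaps. At least 1 YCAY was held by 80.0% of the staying, 71.1% of the appearing and 66.7% of the shrinking exons. This share also depends on exon length. The 30 staying exons held 5951 nt, the 45 appearing ones 6260 nt and the 42 shrinking ones 4154 nt. Over the 800 such cassette exons of both tables the density was 1.81, and 68.9% of them held at least 1 YCAY.

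Short exons with a shrinking gap included the 27 nt exon of Sgce and the 36 nt exon of Cask printed above. The 12 nt coding exon of Cacna1b, the N-type calcium channel, was at 0.54 and 0.38 in the Emx1-Cre and Gad2-Cre controls and at 0.00667 and 0.0197 in the cKO cells. Both classes all but lost this exon, and its control gap of 0.16 was not much larger than its approximate SE of 0.127.

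Genes were next grouped by function, taking for each the event with the largest gap change. A gene with several events has more chances of a large gap change, and the lists were not matched for this number. Over all 344 genes the gap stayed in 26 (7.56%), shrank in 75 (21.8%), appeared in 68 (19.8%), reversed in 10 (2.91%) and was below 0.1 both times in 165 (48.0%). The median size of the gap change was 0.0798. The lists had been drawn up with earlier results of these data known, and each count is a description.

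RNA-binding and splicing genes had the smallest median gap change of the 12 lists, 0.0201. Of 79 on the list, 11 had a matched event, with 9 below 0.1 both times and 2 shrinking. A retained intron of Srsf1, an SR protein, was at 0.158 and 0.177 in the Emx1-Cre and Gad2-Cre controls and at 0.28 and 0.31 in the cKO cells. A cassette exon of Srsf3, another SR protein, went from 0.0568 and 0.0738 to 0.18 and 0.181, with an approximate SE of 0.00856. Both rose by little and almost equally in both classes. The lists were not matched for the size of the Nova2 change, which bears on how large a gap change can be. The largest gap change was in Celf2, a regulator of splicing and RNA stability, where a tandem cassette went from 0.697 and 0.853 to 0.567 and 0.603.

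Synaptic adhesion genes fell into every category. Of 14 synaptic adhesion genes the gap appeared in 4, shrank in 4, stayed in 2, reversed in 1 and was below 0.1 both times in 3, with a median gap change of 0.162. Beside Nrcam and Clstn1, an appearing gap was seen in Nrxn3, a presynaptic neurexin, whose 27 nt coding exon went from 0.731 and 0.804 in Emx1-Cre and Gad2-Cre controls to 0.467 and 0.695. For the latrophilin Adgrl3, a coding exon of 18 nt went from 0.439 and 0.798 to 0.65 and 0.543, rising in excitatory and falling in inhibitory cells.

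Of 14 glutamate synapse genes the gap appeared in 4, shrank in 3, stayed in 2, reversed in 1 (Dlg3) and was below 0.1 both times in 4. A 63 nt coding exon of Grin1, the obligatory NMDA receptor subunit, went from 0.0743 and 0.0609 to 0.393 and 0.188, a cKO gap of 0.204 (approximate SE 0.107). Grik2, a kainate receptor subunit, had a shrinking gap at an 87 nt exon, from 0.385 and 0.687 to 0.0482 and 0.101.

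All 3 inhibitory synapse genes with a matched event, of 22 on the list, had a gap that appeared. They are Glra2 and Erbb4, described above, and Gphn, which encodes the scaffold gephyrin of glycine and GABA receptors. A 105 nt exon of Gphn was at 0.0915 and 0.0383 in the Emx1-Cre and Gad2-Cre controls and at 0.789 and 0.501 in the cKO cells. Its cKO gap was 0.288 with an approximate SE of 0.0635. Excitatory cells thus gained the Gphn and Glra2 exons more, and inhibitory cells the Erbb4 exon.

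The cytoskeleton list had the most matched genes, 21 of 55. The gap shrank in 8, appeared in 7, stayed in 4 and was below 0.1 both times in 2, so 2 of 21 were alike both times beside 165 of 344 genes. This list includes Map2, the gene with the most matched events (19), and the number of events per gene was not taken into account. Ank2, ankyrin-B, had an appearing gap at a tandem cassette that went from 0.105 and 0.179 to 0.926 and 0.686. A 76 nt coding exon of Tpm3, a tropomyosin, went from 0.0404 and 0.0943 to 0.535 and 0.299. Dclk2, a doublecortin-like kinase on microtubules, had a shrinking gap at a 48 nt coding exon, from 0.412 and 0.268 to 0.0781 and 0.0687. A 327 nt coding exon of Macf1, which links actin and microtubules, kept a gap, going from 0.204 and 0.0226 to 0.371 and 0.259.

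Of 11 chromatin and transcription genes the gap shrank in 5, appeared in 3 and was below 0.1 both times in 3. The largest gap change was in Bptf, a nucleosome remodelling subunit, whose tandem cassette went from 0.591 and 0.907 to 0.227 and 0.301. Smarcc2 and Smarce1 encode subunits of the BAF remodelling complex and differed in pattern. The 93 nt coding exon of Smarcc2 went from 0.431 and 0.596 to 0.321 and 0.347, a shrinking gap, and the 173 nt exon of Smarce1 from 0.282 and 0.266 to 0.954 and 0.773, an appearing one.

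Of 13 kinase and phosphatase genes the gap appeared in 5, shrank in 3, stayed in 2 and was below 0.1 both times in 3, with a median gap change of 0.186. A 27 nt exon of Ppp3cb, a catalytic subunit of calcineurin, went from 0.00268 and 0.00015 to 0.43 and 0.229. Of 8 presynaptic and trafficking genes the gap shrank in 4, appeared in 1 and stayed in 1 (Erc2), and 2 were below 0.1 both times. The appearing gap was in Epn1, an endocytic adaptor, whose 75 nt coding exon went from 0.2 and 0.226 to 0.807 and 0.656. Of 9 regulators of small GTPases the gap shrank in 3, reversed in 1 (Rasal2) and was below 0.1 both times in 5. Among 5 ion channel genes the categories were 2 shrinking, 1 appearing, 1 staying and 1 below 0.1 both times.

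Axon guidance genes were represented by 3 of 40. The gap appeared in Neo1, the netrin receptor neogenin, where a tandem cassette went from 0.267 and 0.298 to 0.977 and 0.676. It was below 0.1 both times in Robo2, a Slit receptor, and in Abi1, an actin regulator of the WAVE complex.

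A list of genes known as NOVA targets from earlier work had 17 of 32 matched. The gap appeared in 9, shrank in 3, stayed in 3 and was below 0.1 both times in 2, and the larger change was in Emx1-Cre cells for 14 and in Gad2-Cre cells for 3, beside 185 and 159 over all genes. Among them are Glra2, Gphn, Ank2, Neo1 and Map4, a microtubule-binding protein whose 190 nt coding exon went from 0.422 and 0.487 to 0.993 and 0.877. This list shares genes with the others.

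**Figure D5:**
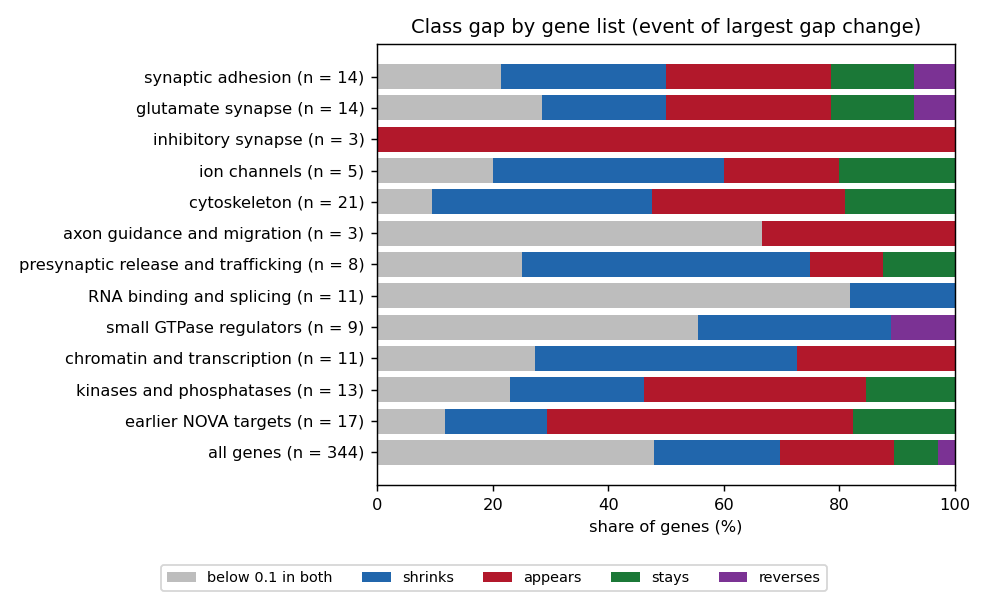
The share of genes (horizontal axis, percent) in each class of gap for the 12 gene lists and all 344 genes (rows, with the number of genes that had a matched event), taking the event with the largest gap change of each gene. The RNA-binding and splicing list has 9 of 11 below 0.1 in both and the cytoskeleton list 2 of 21.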

How the data were processed

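RNA-seq splicing tables of Emx1-Cre and Gad2-Cre cortical neurons, control and Nova2 cKO, were used, with 3 samples in each of 4 groups. Splicing was quantified by the authors with Quantas (build mm10), per the labels. kallisto and edgeR appear in the submitters' processing notes without a role; aligner, versions and strandedness are not given in the sources used here. Per the file headers, each deposited table holds a fraction for every group (its inclusion level, from 0 to 1), pooled over samples by the authors, and the difference of group 1 and group 2. Per the file headers it also holds the authors' p-value and FDR, and no listed event has an FDR above 0.05 or a difference below 0.1. Coverage is a deposited signal, 1 value per event and comparison and never below 20.0, and how it was defined is not stated there. Sample depth is unknown, so no interval per sample is given. Pooled levels carry no spread between samples, and matching the tables leaves out events listed in 1 class only.

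Events were matched by name and isoform, and events that share a gene identifier were counted as 1 gene. The control levels in the cKO tables and in the table of controls were equal within 1e-09 at the 107 shared events. The SE of a difference was the difference divided by the normal deviate of the authors' p-value, and the SE of a gap change was the root of the summed squares for both classes. A simulation of this step drew its p-values from the same normal formula, so it checks the arithmetic alone. It could not show whether the authors' p-values follow that formula. Exons were matched exactly to GENCODE M21 (Python 3.11.15, pandas 2.3.3, scipy 1.17.1). Direction is that of the first-named isoform, which for mutually exclusive exons and splice sites carries no order of inclusion.

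The members and lists were chosen with earlier results of these data known. Among events with coverage of at least 30 in both tables, 1 per gene, the text names the 8 genes with the largest gaps or gap changes for gaps that stay, shrink and appear, 6 for gaps that reverse, 6 with the largest Nova2 change and no gap, the gene with the largest gap change on each of 12 lists, and the 2 events nearest to a cKO gap of 0.1 on each side. Further genes were named after their values were seen. Alternatives were a gap of 0.05 or 0.2, coverage of at least 50, cassette exons alone, 1 event per gene, levels from 0.05 to 0.95, events of equal direction, gaps on a log odds scale and 3 SE. Other groups, including Purkinje tissue, were not used here.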

Additional observations from a re-analysis of the deposited data

How the results depend on the processing

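The main values are shares of the 823 events. A gap of 0.2 gave 0.608% staying, 8.26% shrinking, 6.32% appearing, 0% reversed and 84.8% below the threshold both times. A gap of 0.05 gave 23.3% staying, 25.0% appearing, 7.65% reversed and 24.9% below it both times. Coverage of at least 50 gave 0.698% reversed and 56.5% below 0.1 both times. Cassette exons alone gave 14.1% staying, 21.9% appearing, 41.9% below 0.1 both times, and 26.6% with a gap change beyond 2 SE. With 1 event per gene 17.2% shrank, 18.0% changed beyond 2 SE, and the median gap size was larger in cKO cells by 0.00471. With all levels from 0.05 to 0.95, 13.0% appeared, 18.3% changed beyond 2 SE, and that difference of medians was 0.00243. At 3 SE, 11.3% changed. In all, 22 values moved and 51 did not. Shares were judged by their counting error, and medians, which have none, by a factor of 1.5. The share of events with a smaller gap in cKO cells was 49.2% and passed 50% only with levels from 0.05 to 0.95, at 51.2%. More gaps shrank (20.0%) than appeared (17.0%), but fewer did among cassette exons (20.0% and 21.9%), with 1 event per gene (17.2% and 18.3%) and at a gap of 0.05 (19.1% and 25.0%). No paired analysis was possible because each group has 1 pooled level, and for the same reason leaving out a sample was not run. YCAY in flanking introns, at 100 or 200 nt, was not run because no genome sequence was used here. The unknown depth per sample limits every level.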
